A study of Mus musculus with 10 samples.

Results

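The 3 glycogen phosphorylase genes of the mouse (Pygb, Pygl and Pygm) and the 5 genes that encode the dedicated subunits of phosphorylase kinase (Phka1, Phka2, Phkb, Phkg1 and Phkg2) were followed in cultured fetal testes. They were taken by gene symbol, as the enzymes targeted by the inhibitor used in the culture and the kinase that activates them, and all 8 were found among the 24470 gene entries of the count table. Pairs of gonads from 5 male C57BL/6 embryos at E12.5 were cultured for 48 h. In each pair, 1 gonad received 75 µM of GPI (CP-316819, a glycogen phosphorylase inhibitor) and its partner received the solvent DMSO alone, called vehicle here. The embryos are named M1 to M5. RNA of the whole gonad, separated from the mesonephros after culture, was sequenced as 1 library per gonad, giving 5 vehicle and 5 GPI libraries with no gene altered in either group. Total counts per library ran from 10203679 (vehicle, M2) to 15635322 (GPI, M2).

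Glycogen phosphorylase removes glucose units from the ends of glycogen chains as glucose 1-phosphate. Its brain (Pygb), liver (Pygl) and muscle (Pygm) isozymes are switched on by phosphorylation, which is carried out by phosphorylase kinase, an assembly of regulatory alpha and beta subunits, a catalytic gamma subunit and calmodulin as the calcium-binding delta subunit; protein kinase A acts on that kinase, and protein phosphatase 1 reverses both steps. In the fetal testis, glycogen is known from Sertoli cells shortly after they differentiate.

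Of the 8 genes, 7 had enough counts to be tested, and 2 of the 7, Phka1 and Phkb, were called different between GPI and vehicle, both higher with GPI (edgeR's quasi-likelihood test with the embryo as a block, Benjamini-Hochberg adjusted p under 0.05). Among all 13941 genes tested, 22.9% were called in either direction, 11.1% higher and 11.9% lower with GPI, so that a share of this size was also found in the rest of the table. The median log2 fold change of the 7 genes was 0.01, and that of all tested genes was 0.02. Without M1 there were 3 calls, without M2 and without M5 there was 1 each, and without M3 or without M4 there were 0 by edgeR, with 3 and 2 of the 7 genes at an unadjusted p under 0.05; with all libraries, DESeq2 called 3 and limma-voom 2. In whole-organ RNA, a change in the number of cells that express a gene and a change in its RNA per cell cannot be told apart.

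Levels were first compared between the genes on a scale that takes length into account, as TMM-scaled CPM per kilobase of the longest annotated transcript. In vehicle testes, Pygb had the highest level of the 8 genes (25.1 ± 2.16, SD, n = 5), followed by Phkb (15.9 ± 0.916, SD, n = 5), Pygl (11.5 ± 1.85, SD, n = 5) and Phka2 (8.48 ± 0.862, SD, n = 5). Lower in this order were Phkg2 at 3.35 ± 1.09, Phka1 at 3.14 ± 0.229, Pygm at 1.74 ± 0.528 and Phkg1 at 0.137 ± 0.0814 (level, SD, n = 5 for each). The ranges of Pygl and Phka2 overlapped, as did those of Phkg2 and Phka1; each of the other neighbours in the order was separated in all 5 libraries. With GPI the order was the same except that Phka1 (4.12 ± 0.506) stood before Phkg2 (3.30 ± 0.88; level, SD, n = 5), again with overlapping ranges, and Pygl (9.26 ± 4.43) and Phka2 (8.54 ± 0.717) overlapped as in vehicle.

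**Figure D1:**
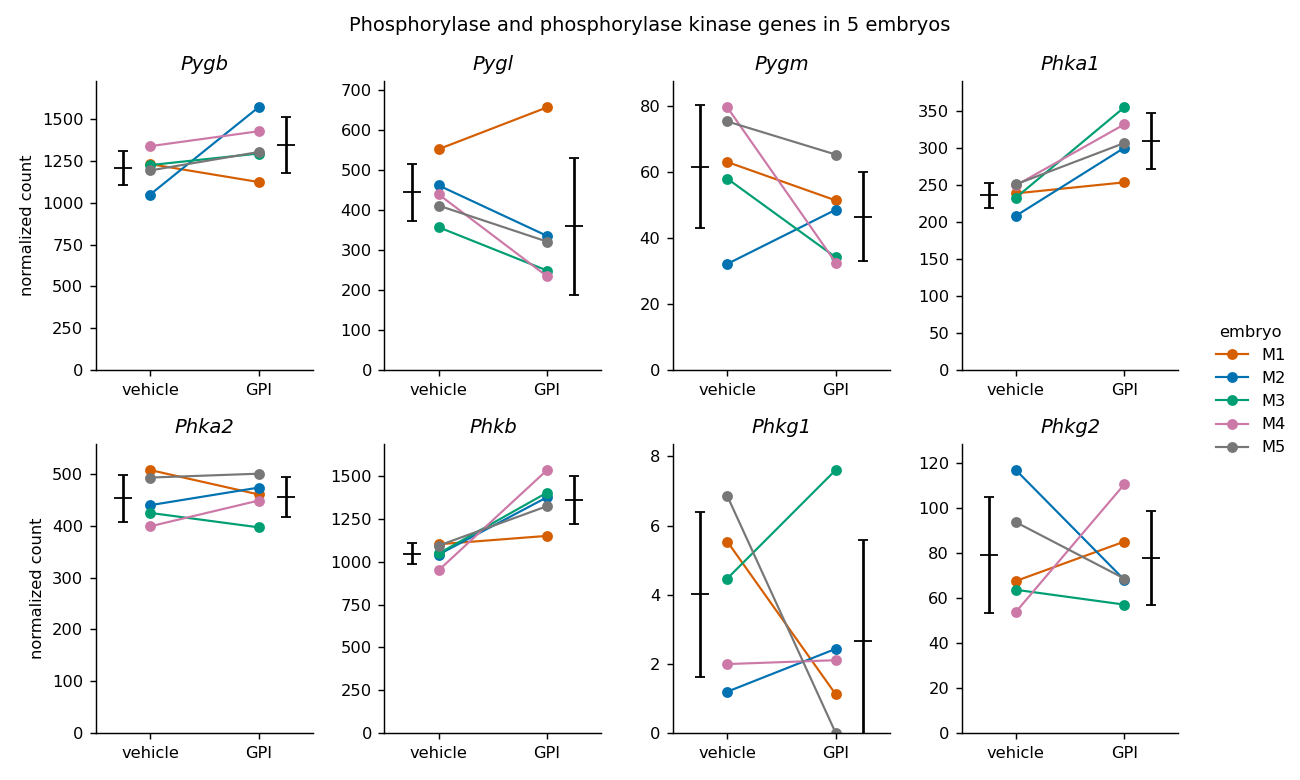
Normalized counts (vertical axis, from 0) of the 8 genes in the vehicle and GPI gonad of each embryo, joined by a line per embryo; black bars beside the points are the mean and SD of 5 libraries. The GPI points of Phka1 (254 to 356) and Phkb (1152 to 1537) lie above all vehicle points, while Pygl is higher with GPI only in the pair of M1 (552.5 and 657).

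The phosphorylase genes lie on 3 chromosomes, Pygb (Entrez Gene 110078) on mm10 chromosome 2 from 150786796 to 150831748, Pygl (110095) on chromosome 12 from 70190815 to 70227683, and Pygm (19309) on chromosome 19 from 6384408 to 6398464, and none of them overlaps another entry of the table. The 250 bases before the start of each are shown because a 5-letter sequence was found in all 3 and in none of the 5 kinase promoters. The promoter of Pygb is chr2:150786546-150786795 (plus strand), that of Pygl chr12:70227684-70227933 (minus strand) and that of Pygm chr19:6384158-6384407 (plus strand), from RefSeq on GRCm38.p6, and each is written 5′ to 3′ on the strand of its gene. Capitals mark ACGTG, the core of the hypoxia response element, read on either strand.
Pygb: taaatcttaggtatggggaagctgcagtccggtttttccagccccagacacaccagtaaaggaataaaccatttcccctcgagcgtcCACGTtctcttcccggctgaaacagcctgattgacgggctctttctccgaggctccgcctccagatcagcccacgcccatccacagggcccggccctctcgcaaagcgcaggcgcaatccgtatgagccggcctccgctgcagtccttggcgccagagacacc
Pygl: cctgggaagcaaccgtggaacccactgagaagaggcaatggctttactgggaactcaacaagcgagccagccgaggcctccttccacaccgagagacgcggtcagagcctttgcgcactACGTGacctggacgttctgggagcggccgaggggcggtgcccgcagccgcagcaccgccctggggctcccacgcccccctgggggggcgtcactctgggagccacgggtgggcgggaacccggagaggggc
Pygm: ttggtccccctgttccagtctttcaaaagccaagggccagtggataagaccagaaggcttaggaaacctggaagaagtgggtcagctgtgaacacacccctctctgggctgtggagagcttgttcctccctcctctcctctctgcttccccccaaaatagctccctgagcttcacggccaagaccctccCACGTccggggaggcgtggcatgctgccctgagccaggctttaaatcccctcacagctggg
The match begins 163 bases before the start of Pygb, 131 before that of Pygl and 61 before that of Pygm; it lies on the strand of the gene in Pygl and on the other strand in Pygb and Pygm. Of 32851 promoters of the same length, 16.57% held ACGTG. So did 16 of the 39 listed for 25 of the other glycogen genes treated below, some of which have several. Counted by gene, 16 of these 25 had a match. Both strands were also searched for TGACG, part of the cAMP response element, which was found in Pygb and Pygl (and in 17.77% of all promoters), and for the GC box GGGCGG, which was found 3 times in Pygl and in neither of the other phosphorylases (32.74% of all promoters). None of these matches overlapped another. The 3 sequences were chosen for the search after expression values had been seen, and a match describes the letters in this window only.

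Pygb, the brain isozyme and the phosphorylase with the highest level here, had 1231, 1049, 1225, 1338 and 1193 normalized counts in the vehicle gonads of M1 to M5 in turn, and 1124, 1570, 1294, 1427 and 1303 in their GPI gonads. The groups overlapped: M2 had the lowest vehicle and the highest GPI value, and the GPI gonad of M1 was below 4 of the 5 vehicle gonads. The mean was 1207 ± 104 with vehicle and 1344 ± 166 with GPI (normalized counts, SD, n = 5), a log2 fold change of 0.15 (standard error 0.09, 95% interval -0.05 to 0.35), which did not pass the test (edgeR, adjusted p = 0.299), with 4 of 5 embryos higher.

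Pygl, the liver isozyme, had 552.5, 462, 357, 439 and 411 normalized counts in the vehicle gonads of M1 to M5, and 657, 336, 249, 235 and 321 in the GPI gonads. M1 had the highest count of its group in both treatments. The GPI gonads of M2 to M5 lay below all 5 vehicle gonads and the GPI gonad of M1 above them, so that the groups overlapped through M1. Means were 444 ± 71.9 with vehicle and 360 ± 172 with GPI (normalized counts, SD, n = 5). The log2 fold change of -0.39 (standard error 0.14, 95% interval -0.69 to -0.09) did not pass the test (edgeR, adjusted p = 0.0608), with 4 of 5 embryos lower. Without M1 the log2 fold change was -0.57 and Pygl was called lower (edgeR, adjusted p = 0.00364); over all alternatives the adjusted p ran from 0.00364 to 0.38, and it was under 0.05 also with DESeq2 (0.0421), with scaling by total counts only (0.0388) and without the low-count filter (edgeR, 0.0276).

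Pygm, the muscle isozyme, was the least abundant of the 3, with 63.1, 32.2, 58.1, 79.7 and 75.4 normalized counts in the vehicle gonads of M1 to M5 and 51.5, 48.6, 34.2, 32.6 and 65.4 in the GPI gonads. The ranges overlapped, with M2 the only embryo that was higher with GPI. Its log2 fold change was -0.39 (standard error 0.28, 95% interval -0.99 to 0.20, edgeR, adjusted p = 0.353), the widest interval of the 3 phosphorylases. Markers of skeletal muscle, where Pygm is the main phosphorylase, were low except for Tnnt3: of Ckm, Acta1, Myog, Myod1, Tnnt3 and Mylpf, Myod1 had 0 counts in all 10 libraries, Ckm 4 counts in all libraries together, Acta1 7, Myog 12 and Mylpf 45. Tnnt3, with a mean of 48.5 normalized counts with vehicle and 20.2 with GPI, held 83.4% of the counts of these 6 genes and was the only one tested (log2 fold change -1.26, edgeR, adjusted p = 0.01). The summed normalized counts of the 6 were 54, 67, 48, 54 and 56 in the vehicle gonads of M1 to M5 and 39, 19, 23, 23 and 31 in the GPI gonads, and their part in the values of Pygm was not tested.

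Shares of the isozymes were computed in each library from the levels per length. Pygb made up 61.5%, 63.0%, 70.1%, 67.2% and 66.1% of the summed phosphorylase level in the vehicle gonads of M1 to M5, and 55.9%, 76.5%, 78.4%, 81.0% and 72.8% in the GPI gonads. For Pygl the shares were 34.2%, 34.4%, 25.4%, 27.4% and 28.3% with vehicle and 40.6%, 20.3%, 18.7%, 16.5% and 22.3% with GPI. Thus, in M2 to M5 the GPI gonads had a higher share of Pygb and a lower share of Pygl than any vehicle gonad, and M1 had the reverse. Over all 5 embryos the mean share of Pygl differed by -6.25 percentage points (29.9% ± 4.14 with vehicle, 23.7% ± 9.68 with GPI, SD, n = 5; exact permutation test, two-sided, with 252 regroupings; p = 0.222, adjusted p over 5 shares = 0.278). The share of Pygb differed by 7.36 points (65.6% ± 3.42 with vehicle, 72.9% ± 9.96 with GPI, SD, n = 5; exact permutation p = 0.159, adjusted p = 0.265) and that of Pygm by -1.11 points (4.51% ± 1.21 against 3.40% ± 0.949, SD, n = 5; exact permutation p = 0.151, adjusted p = 0.265). None of the 3 passed. Without M1 the difference was 10.6 points for Pygb and -9.40 for Pygl (exact permutation over 70 regroupings, adjusted p = 0.0714 for both, with a range over alternatives of 0.0714 to 0.536). Both separated fully there, and with 4 against 4 the exact p could not be lower (0.0286 before adjustment). As a share of raw phosphorylase counts, Pygl took 35.9% in the GPI gonad of M1 (95% Wilson interval 33.6% to 38.2%) and 13.9% in that of M4 (12.2% to 15.6%), intervals that cover counting error only.

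**Figure D2:**
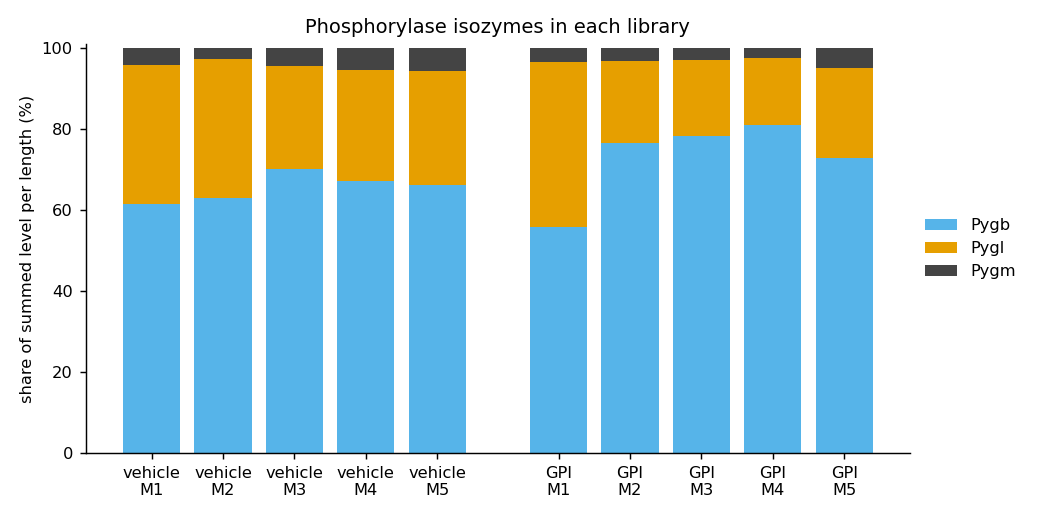
Share of Pygb, Pygl and Pygm in the summed phosphorylase level per length (vertical axis, percent) in each of the 10 libraries. Pygb is the largest part of every bar, and the Pygl part is largest in the GPI gonad of M1 (40.6%) and smallest in the GPI gonad of M4 (16.5%).

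The summed phosphorylase level was nearly the same in the means of both groups. It was 41.6, 34.6, 36.3, 41.3 and 37.5 in the vehicle gonads of M1 to M5 and 41.7, 42.6, 34.3, 36.6 and 37.2 in the GPI gonads (scaled CPM per kilobase). The means were 38.3 ± 3.10 and 38.5 ± 3.56 (SD, n = 5), a difference of 0.214 in the level that did not pass (exact two-sided permutation test, p = 0.865, adjusted p over 2 sums = 0.865). Its sign was not fixed, since the difference was -1.74 without M2 and -1.08 with scaling by total counts only.

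Phosphorylase kinase was read by subunit. Phkb (Entrez Gene 102093; mm10 chromosome 8 from 85841002 to 86060642), the gene of the regulatory beta subunit, had 1103, 1043, 1049, 951 and 1095 normalized counts in the vehicle gonads of M1 to M5 and 1152, 1378, 1405, 1537 and 1326 in the GPI gonads. All 5 GPI gonads were above all 5 vehicle gonads; the pair of M1 was the closest, and M4 had the lowest vehicle and the highest GPI value. The mean rose from 1048 ± 60.4 to 1360 ± 140 (normalized counts, SD, n = 5), a log2 fold change of 0.37 (standard error 0.09, edgeR, adjusted p = 0.00829), higher in 5 of 5 embryos. Without M3 the adjusted p was 0.0517 and without M4 it was 0.0537 (edgeR), with log2 fold changes of 0.34 and 0.29; over all alternatives it ran from 0.00243 to 0.0537.

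Phka1 (Entrez Gene 18679; mm10 chromosome X from 102513975 to 102644246) encodes the alpha subunit known from muscle. It had 239, 209, 233, 250 and 251 normalized counts in the vehicle gonads of M1 to M5 and 254, 301, 356, 332.5 and 307 in the GPI gonads. Again no GPI gonad was as low as a vehicle gonad, with M1 closest to the vehicle range. The mean rose from 237 ± 17.2 to 310 ± 38.1 (normalized counts, SD, n = 5), a log2 fold change of 0.39 (standard error 0.12, edgeR, adjusted p = 0.0272), higher in 5 of 5 embryos. This call was lost on leaving out any embryo but M1: the adjusted p was 0.063 without M2, 0.151 without M3, 0.0877 without M4 and 0.0533 without M5 (edgeR), with log2 fold changes from 0.31 to 0.41, and it was 0.0514 with scaling by total counts only; the range over alternatives was 0.0185 to 0.151.

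The promoters of Phka1 and Phkb, the genes of this family that were called, are shown with the GC box GGGCGG in capitals, read on either strand (RefSeq, GRCm38.p6, 250 bases before the start, 5′ to 3′ on the strand of the gene). They lie at chrX:102644247-102644496 (minus strand) and chr8:85840738-85840987 (plus strand). Gene positions given here are those that came with the count table, and promoters are from RefSeq. The starts of Phkb, Phka2 and Phkg1 differ between these sources.
Phka1: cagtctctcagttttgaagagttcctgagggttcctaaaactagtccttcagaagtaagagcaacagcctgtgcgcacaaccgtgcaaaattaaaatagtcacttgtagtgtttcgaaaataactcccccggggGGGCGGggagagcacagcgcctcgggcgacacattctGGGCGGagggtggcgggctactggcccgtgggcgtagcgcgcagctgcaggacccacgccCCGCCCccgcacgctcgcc
Phkb: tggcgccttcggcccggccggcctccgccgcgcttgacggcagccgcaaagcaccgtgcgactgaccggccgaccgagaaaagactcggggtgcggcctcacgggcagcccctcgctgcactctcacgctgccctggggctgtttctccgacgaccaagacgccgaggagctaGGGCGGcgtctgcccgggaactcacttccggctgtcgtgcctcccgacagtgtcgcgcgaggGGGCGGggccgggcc
The GC box occurred 3 times in the promoter of Phka1 and 2 times in that of Phkb, and also 2 times in that of Phka2 and 1 time in that of Phkg2, the expression of which did not pass the test, but not in that of Phkg1. Phkb also held 1 TGACG, beginning 216 bases before the start. None of the 5 kinase promoters held ACGTG.

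Phka2 (Entrez Gene 110094; chromosome X from 160502166 to 160598878), the alpha subunit known from liver, had 508, 440.3, 425, 399 and 494 normalized counts in the vehicle gonads of M1 to M5 and 461, 474, 397.5, 449 and 501 in the GPI gonads. The groups covered nearly the same range, with 3 of 5 embryos higher. The log2 fold change was 0.01 (standard error 0.09, 95% interval -0.19 to 0.22, edgeR, adjusted p = 0.949) and turned to -0.04 with scaling by total counts only, -0.01 without M2 and -0.03 without M4. Phka1 made up 25.0%, 25.2%, 28.0%, 30.8% and 26.6% of the alpha subunit level per length in the vehicle gonads of M1 to M5 and 28.1%, 31.0%, 38.8%, 34.4% and 30.3% in the GPI gonads. Every embryo had a higher share of Phka1 with GPI, although the groups overlapped. The difference of 5.44 points in the means (27.1% ± 2.37 against 32.6% ± 4.19, SD, n = 5) gave p = 0.0317 in the exact permutation test and did not pass after adjustment over the 5 shares (adjusted p = 0.159).

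Of the genes of the catalytic gamma subunit, Phkg2 (Entrez Gene 68961; chromosome 7 from 127573348 to 127583307), known from liver and testis, had between 53.8 and 117 normalized counts with vehicle and between 57.1 and 110.5 with GPI. The groups overlapped, with 2 embryos higher and 3 lower. Its log2 fold change was -0.01 (standard error 0.25, 95% interval -0.56 to 0.53, edgeR, adjusted p = 0.979), with the sign turned without M2 (0.19), without M3 (0.00) and without M5 (0.10). Phkg1 (Entrez Gene 18682; chromosome 5 from 129863435 to 129879083), the gamma subunit of muscle, had 5, 1, 4, 2 and 9 raw counts in the vehicle gonads of M1 to M5 and 1, 3, 8, 2 and 0 in the GPI gonads, and was below the low-count filter. With so few counts, a difference in Phkg1 could be missed. Its share of the gamma subunit level was 4.18% ± 2.26 with vehicle and 3.02% ± 3.88 with GPI (SD, n = 5; exact two-sided permutation test, p = 0.571, adjusted p = 0.571); in the GPI gonad of M5, 0 counts allow a share of up to 3.70%. Both genes overlap a gene on the other strand, Phkg2 with Ccdc189 and Phkg1 with Sumf2, and as the counting was unstranded, the source of part of their counts is uncertain. An exon of Phka2 also overlaps Gm15243 on the other strand.

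Taking the subunits per library, the level per length of both alpha genes together was 0.731 ± 0.0325 of that of Phkb with vehicle and 0.618 ± 0.0597 with GPI (ratio, SD, n = 5). The ratio is a description and was not tested. The summed level of the 5 kinase genes was 32.5, 31.8, 29.8, 27.6 and 33.4 in the vehicle gonads of M1 to M5 and 33.1, 36.7, 36.1, 40.9 and 36.5 in the GPI gonads. Only the GPI gonad of M1 fell within the vehicle range. The mean went from 31.0 ± 2.33 to 36.7 ± 2.77 (SD, n = 5), higher by 5.66 (exact two-sided permutation test, p = 0.0159, adjusted p over 2 sums = 0.0317), in 5 of 5 embryos. With signs flipped within embryos, which keeps the pairing and cannot go below p = 0.0625 with 5 pairs, the exact p was 0.0625 (adjusted p = 0.125); without M1 or M5 the exact adjusted p was 0.0571, and without M2, M3 or M4 it was 0.114. In designs of 4 against 4 the exact p cannot go below 0.0286 before adjustment, a value reached without M1 and without M5. That value is under 0.05, and the call was lost there with the adjustment over the 2 sums. Without M2, M3 or M4 the lowest possible p was not reached.

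The further glycogen genes, 31 in 8 lists, showed changes in both directions. Of the 29 that were tested, 3 were called higher and 4 lower with GPI, beside 11.1% and 11.9% of all tested genes; the median log2 fold change of the 29 was -0.03. Without M4 there were 4 calls in place of 7.

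**Figure D3:**
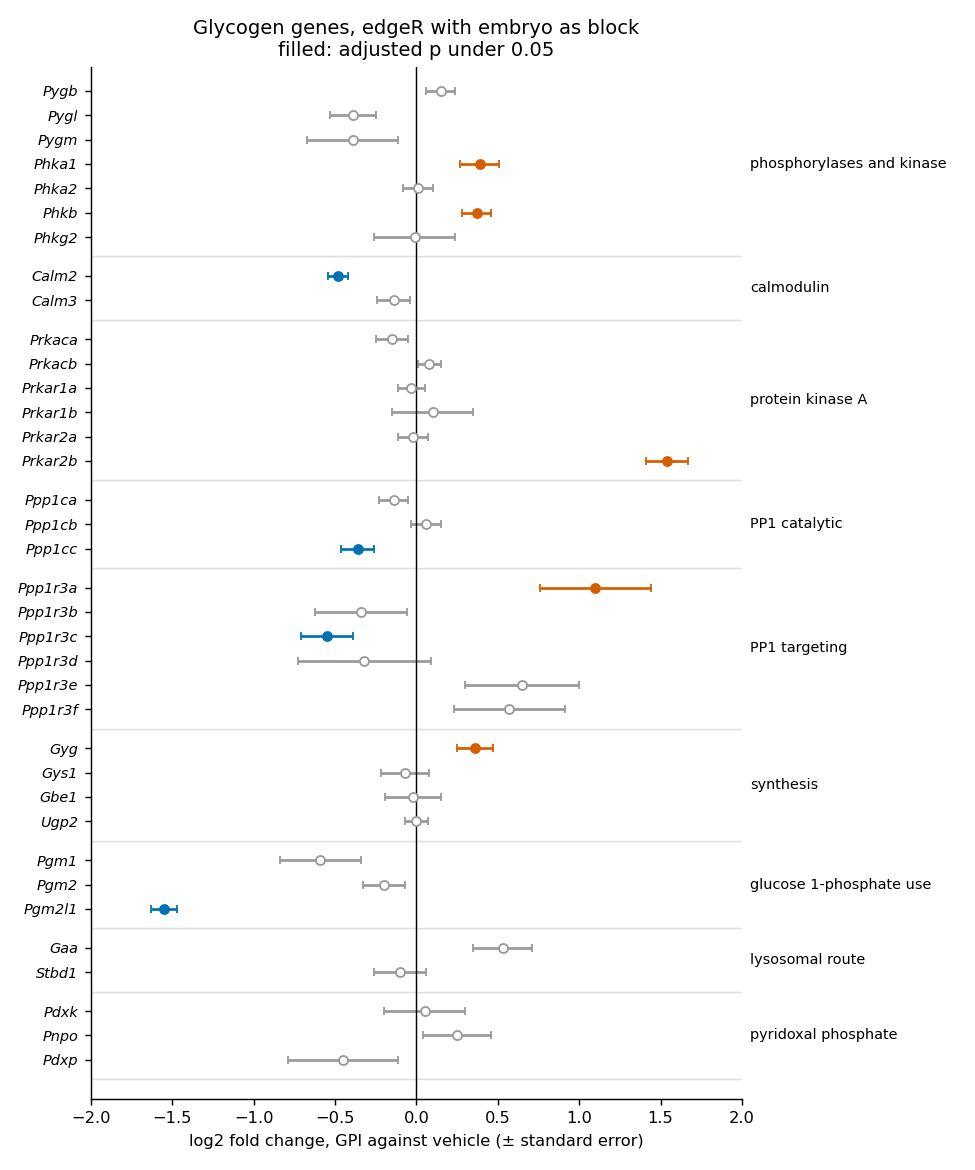
Log2 fold change, GPI against vehicle (horizontal axis, points with standard error), of the 36 tested genes by list; filled points have an edgeR adjusted p under 0.05, orange higher and blue lower with GPI. Prkar2b (1.54) and Pgm2l1 (-1.55) lie farthest from 0, and the called kinase genes Phka1 and Phkb lie at 0.39 and 0.37.

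Calmodulin, the delta subunit of phosphorylase kinase and a calcium sensor for many other proteins, was followed through Calm2 and Calm3. Calm2 had 5369, 5503, 5766, 6333 and 5319 normalized counts in the vehicle gonads of M1 to M5 and 4058, 3861, 4075, 4138 and 4100 in the GPI gonads, so that the groups were far apart. Its log2 fold change was -0.48 (standard error 0.06, edgeR, adjusted p = 0.000106), lower in 5 of 5 embryos. Calm3 did not pass (log2 fold change -0.14, standard error 0.10, edgeR, adjusted p = 0.363). Therefore, Calm2 moved in the opposite direction to Phka1 and Phkb; the difference between them was not tested.

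Among the 6 subunit genes of protein kinase A, which phosphorylates phosphorylase kinase, 1 rose and 0 fell. Prkar2b, a regulatory subunit that holds the catalytic subunits inactive until cAMP binds, had 159.5, 267, 285, 236 and 312 normalized counts in the vehicle gonads of M1 to M5 and 577.5, 612, 757, 952 and 747.5 in the GPI gonads. Each GPI gonad was above every vehicle gonad, with a log2 fold change of 1.54 (standard error 0.13, edgeR, adjusted p = 1.52e-06), higher in 5 of 5 embryos. The catalytic subunit gene Prkaca did not pass (-0.15, standard error 0.10, edgeR, adjusted p = 0.315), and the other 4 had log2 fold changes from -0.03 to 0.10.

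Protein phosphatase 1, which takes the phosphate off phosphorylase and its kinase, had 1 of 3 catalytic subunit genes called. Ppp1cc ranged from 604 to 722 normalized counts with vehicle and from 463 to 534 with GPI, without overlap, a log2 fold change of -0.36 (standard error 0.10, edgeR, adjusted p = 0.0142) with 5 of 5 embryos lower; without M4 the adjusted p was 0.0628. Ppp1ca, which overlaps Rad9a on the other strand, did not pass (-0.14, standard error 0.09, edgeR, adjusted p = 0.352).

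The glycogen-targeting subunits bring this phosphatase to the glycogen particle. Of 7 genes, 6 were tested, and 1 rose and 1 fell. Ppp1r3c, also called protein targeting to glycogen, had 253.6, 253, 261, 237 and 254.5 normalized counts in the vehicle gonads of M1 to M5 and 276, 150.8, 147, 194.6 and 124 in the GPI gonads. The vehicle values were close together, and the GPI values were lower in all embryos but M1. The log2 fold change was -0.55 (standard error 0.16, edgeR, adjusted p = 0.0262), and the call was lost without M2 (edgeR, adjusted p = 0.0829), M3 (0.10) or M5 (0.112) and without the replicate block (0.0531), with a range over alternatives of 0.00269 to 0.112.
Ppp1r3a, the targeting subunit of striated muscle, had 14.4, 82.3, 121.7, 28.9 and 190.5 normalized counts in the vehicle gonads of M1 to M5 and 76.1, 135.4, 140.7, 211.5 and 223 in the GPI gonads. It was higher with GPI in each pair, although the embryos differed widely and the groups overlapped. Its log2 fold change was 1.1 (standard error 0.34, edgeR, adjusted p = 0.0318), and 0.82 without the replicate block (edgeR, adjusted p = 0.246). By edgeR it was 0.87 without M1 (adjusted p = 0.0701), 1.19 without M2 (0.0628) and 0.71 without M4 (0.118). It was 1.22 with DESeq2 (adjusted p = 0.0738) and 0.83 with limma-voom (adjusted p = 0.0654). The adjusted p ranged over alternatives from 0.00158 to 0.246. Ppp1r3b, the main targeting subunit of liver, did not pass (log2 fold change -0.34, standard error 0.28, edgeR, adjusted p = 0.444), but ranged from -0.79 without M1 (edgeR, adjusted p = 0.00182) to -0.14 without M3, and was -0.12 without the replicate block (0.00182 to 0.846 over alternatives). Ppp1r3g was not tested; it had between 0 and 7.75 normalized counts with vehicle and between 0 and 2.24 with GPI.

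In glycogen synthesis, 1 of the 4 tested genes rose and 0 fell. Gyg, which encodes glycogenin, the protein primer of a glycogen particle, ranged from 212 to 268 normalized counts with vehicle and from 253 to 361 with GPI. The groups overlapped, but the GPI gonad was higher in 5 of 5 embryos. This was a log2 fold change of 0.36 (standard error 0.11, edgeR, adjusted p = 0.0269). The adjusted p (edgeR) was 0.0531 without M1, 0.0586 without M2, 0.0901 without M3 and 0.10 without M4. With scaling by total counts only it was 0.0613 (edgeR). The log2 fold changes in these settings were 0.31 to 0.36, and the adjusted p ranged over alternatives from 0.0269 to 0.10. Gys1, the glycogen synthase found outside the liver, did not pass (log2 fold change -0.07, standard error 0.15, edgeR, adjusted p = 0.804). Gys2, the liver synthase, was at most 2.23 normalized counts in any library and was not tested.

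On the route out of glycogen, where the phosphoglucomutases act, 1 of 3 genes fell and 0 rose. Pgm2l1, the glucose 1,6-bisphosphate synthase, whose product is the cofactor of phosphoglucomutase, had 2227, 2041, 2266, 2317 and 2244 normalized counts in the vehicle gonads of M1 to M5 and 693, 817, 773, 709 and 803 in the GPI gonads. The groups were widely separated, with a log2 fold change of -1.55 (standard error 0.08, edgeR, adjusted p = 2.42e-08), lower in 5 of 5 embryos. Neither gene of the lysosomal route was called: Gaa, the acid glucosidase, was higher by 0.53 in log2 (standard error 0.18, edgeR, adjusted p = 0.0529, unadjusted p under 0.05 for this 1 of the 2 genes). It was called without M2 (0.72, edgeR, adjusted p = 0.0098), without the replicate block (adjusted p = 0.0379), without the low-count filter (0.0183) and with DESeq2 (0.0386), but was lower without M1 (0.33, edgeR, adjusted p = 0.205), M3 (0.44) or M4 (0.48), within a range over alternatives of 0.0098 to 0.205. Likewise, 0 of 3 genes for pyridoxal phosphate, the cofactor of phosphorylase, were called by edgeR, and none of them had an unadjusted p under 0.05; Pdxk differed by 0.05 in log2 (standard error 0.25, edgeR, adjusted p = 0.92).

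Several of these genes behaved differently in M1. The log2 ratio of the GPI to the vehicle gonad (scaled counts, prior count of 2) of Pygl was 0.25 in M1 and -0.46, -0.52, -0.90 and -0.35 in M2 to M5. That of Ppp1r3b was 1.40 in M1 and -0.73, -1.26, -0.70 and -0.43 in the others, and that of Ppp1r3c was 0.12 in M1 and between -1.02 and -0.28 in the others. Pgm1, the phosphoglucomutase that turns glucose 1-phosphate into glucose 6-phosphate, was named for this pattern after its values were seen, as was the branching enzyme gene Gbe1. Its ratio was 0.78 in M1 and between -1.49 and -0.49 in M2 to M5, and the log2 fold change of -0.59 (standard error 0.25, edgeR, adjusted p = 0.108) became -0.98 without M1 (edgeR, adjusted p = 0.000698; 0.000698 to 0.615 over alternatives), and Pgm1 was also called with all embryos when the low-count filter was left out (-0.60, edgeR, adjusted p = 0.0254). It was smaller and uncalled without M3 (-0.40), with limma-voom (-0.43) and without the replicate block (-0.31), and was uncalled with DESeq2 (-0.64). Gbe1 had 543 normalized counts in the GPI gonad of M1 and between 222 and 289 in the other GPI gonads, and Gys1 had 654 there and between 211 and 317 in the others; exons of Gys1 overlap Ruvbl2, and exons of Pgm1 overlap Itgb3bp, on the other strand.
Of the 36 tested glycogen genes, 6 had a ratio in M1 with the sign opposite to that in all other embryos. They were Pygl, Ppp1r3b, Ppp1r3c and Pgm1, higher with GPI in M1 only, and Pygb (-0.13 in M1, 0.08 to 0.58 in the others) and Ppp1r3e (-0.47 in M1, 0.54 to 1.45 in the others), lower in M1 only. Gys1 and Gbe1 were not among them, as their ratios in M5 were 0.06 and 0.03. This was not particular to M1 by number, since 6 did so in M2, 3 in M3, 2 in M4 and 2 in M5; among all tested genes the share was 8.54% for M1, 9.01% for M2, 4.32% for M3, 3.98% for M4 and 6.91% for M5. In contrast, Prkar2b, Calm2 and Pgm2l1 moved in M1 as in the other embryos.

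**Figure D4:**
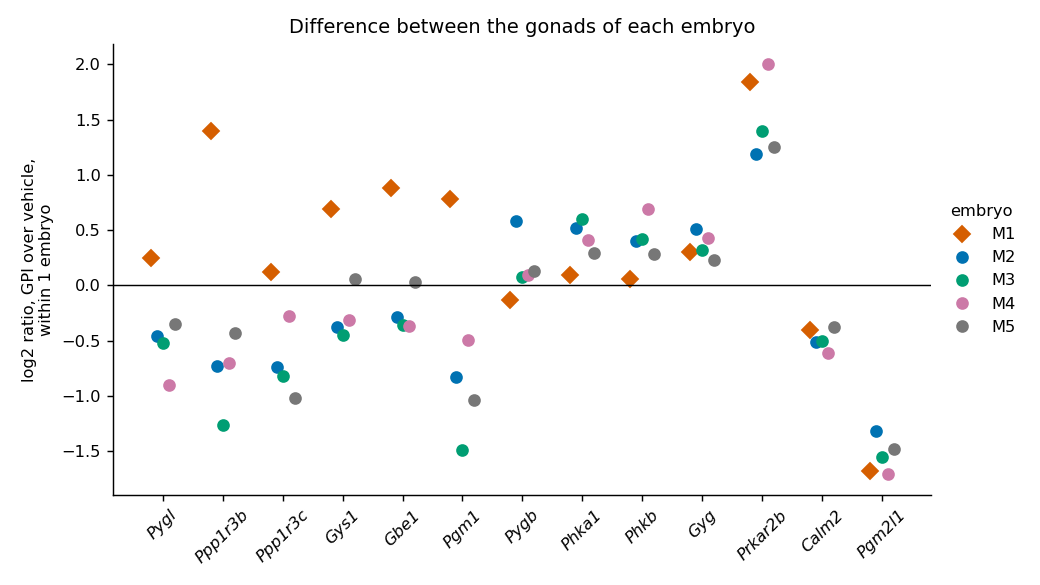
Log2 ratio of the GPI to the vehicle gonad (vertical axis) in each embryo for 13 glycogen genes; diamonds are M1 and circles M2 to M5, and the line marks no difference. M1 lies above 0 and apart from the other embryos for Pygl, Ppp1r3b, Gys1, Gbe1 and Pgm1, but among them for Prkar2b, Calm2 and Pgm2l1.

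The genes with the expression pattern most like each of the 7 tested genes were looked for among 11098 genes (mean count per library 50 or more), by Pearson's correlation of scaled log2 counts over the 10 libraries, which come from 5 embryos and 2 treatments. For Pygl they were Arrdc4 (r = 0.977), Rlf (r = 0.965) and Slc2a1 (r = 0.964), a family member of the arrestins, a zinc finger protein and the glucose transporter GLUT1. Slc2a1 had 2786, 1981, 1703, 1790 and 2084 normalized counts in the vehicle gonads of M1 to M5 and 3832, 947, 753, 644 and 859 in the GPI gonads. Here too, M1 had the highest value in both groups and was the only embryo that was higher with GPI. Over the 8 libraries of M2 to M5 the correlations were 0.97, 0.92 and 0.93, and with the treatment means removed they were 0.98, 0.96 and 0.96 over all 10. The 3 genes were chosen for high correlation over these same libraries, so high values there are no separate support. Arrdc4 and Slc2a1 were called lower with GPI (log2 fold change -0.76 and -0.91; edgeR, adjusted p = 0.0146 and 0.00599), and Rlf was not (-0.20, edgeR, adjusted p = 0.112). The promoters of all 3 also held ACGTG, as did 16.57% of all promoters. For the genes most like Pygb it was 0 of 3 listed promoters, for Pygm 0 of 3 and for Phka1 0 of 2. For Phka2 it was 1 of 1, for Phkb 1 of 3 and for Phkg2 2 of 2. The 3 promoters for Phkb belong to 1 gene, and the 3 for Pygm to 2 genes.

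**Figure D5:**
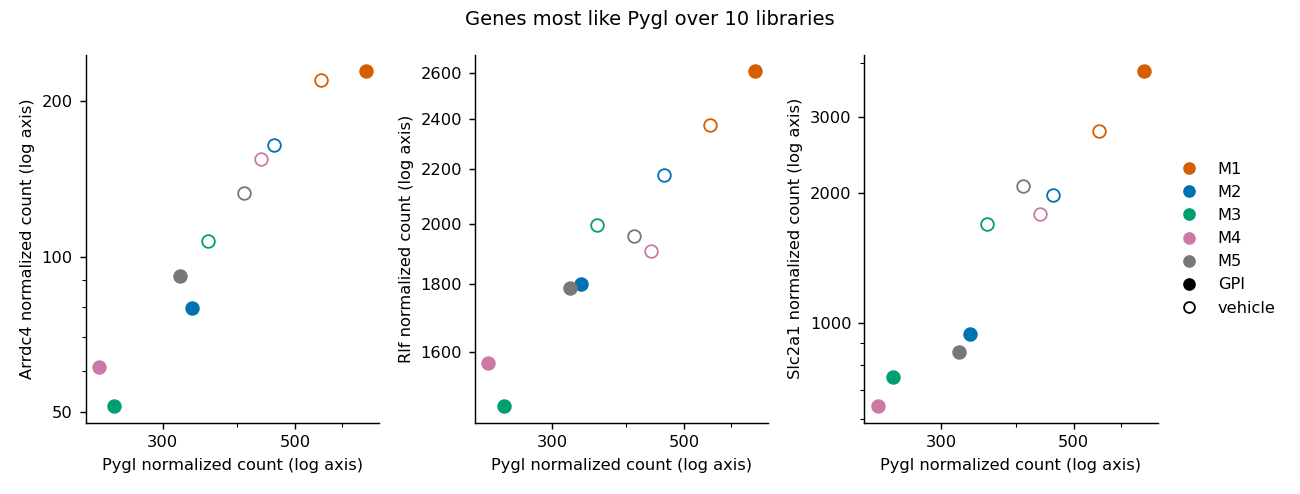
Normalized counts of Arrdc4, Rlf and Slc2a1 (vertical axes) against those of Pygl (horizontal axes) in the 10 libraries, on log axes; filled circles are GPI and open circles vehicle, coloured by embryo. The GPI and vehicle gonads of M1 are at the upper right and the GPI gonads of M3 and M4 at the lower left in each panel.

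For Phkb the most similar genes were Cyb5a (r = 0.983), Sh3tc2 (r = 0.976) and Fbxw7 (r = 0.974), and for Phka1 they were Abhd2 (r = 0.978), Snx7 (r = 0.976) and Lars (r = 0.97). All 6 were called higher with GPI, with log2 fold changes from 0.42 for Lars to 0.81 for Sh3tc2 (edgeR, adjusted p from 0.00114 to 0.00507). With treatment means removed, their correlations were between 0.89 and 0.96. For Pygb, Pccb (r = 0.924), Pigc (r = 0.917) and Map3k7 (r = 0.915) came first, and for Pygm, Rnf182 (r = 0.962), Impa2 (r = 0.942) and Gemin5 (r = 0.908). Phka2 was closest to Reep4 (r = 0.923), Trpm4 (r = 0.896) and Cadps2 (r = 0.881), and Phkg2 to Cyb5r3 (r = 0.937), Ncstn (r = 0.928) and Vps26c (r = 0.908). None of these 12 genes was called (edgeR). Each gene was chosen for its likeness to a member over both treatments. Calls of genes chosen in this way, those above included, thus follow in part from that choice.

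Markers of the cell types in the gonad also moved with GPI, and their part in the values above was not tested. Of 8 Sertoli cell markers, 7 rose and Amh did not pass; Gata4 held the most counts (35.7%). Their summed normalized counts were 4737, 7593, 5689, 6617 and 7061 in the vehicle gonads of M1 to M5 and 6705, 9509, 9690, 11680 and 9891 in the GPI gonads. Of 7 tested germ cell markers, 6 fell and Kit, which held 50.7% of the counts and is not limited to germ cells, did not pass. The germ cell sums were 1902, 3190, 2443, 2990 and 1638 with vehicle and 909, 717, 748, 958 and 942 with GPI. Kit alone had 724, 810, 852, 1035 and 866 with vehicle and 776, 609, 721, 924 and 826 with GPI. It thus made up most of each sum with GPI, and the sums understate the fall of the other germ cell markers. The median log2 fold change of the 7 tested was -4.89.
All 8 endothelial markers fell, Cdh5 having the most counts (37.4%), and their sums were 7368, 7724, 6928, 8105 and 7157 with vehicle and 811, 977, 662, 533 and 684 with GPI in M1 to M5. Each of the 5 tested fetal Leydig cell markers rose, with Hsd3b1 the most abundant (42.7%) and Insl3 too low to be tested, and the sums were 1283, 2711, 3992, 2006 and 5325 with vehicle and 9647, 10178, 15827, 18185 and 12957 with GPI. The GPI gonads were thus lower than every vehicle gonad in germ and endothelial markers and higher in fetal Leydig markers, M1 included.
Of 6 macrophage markers, 5 fell (Cd68 with 24.7% of the counts), with sums of 840, 531, 689, 604 and 630 with vehicle and 401, 338, 331, 187 and 203 with GPI. Of 6 erythroid markers, 5 fell as well, with Hbb-y, one of a family of similar genes, at 71.6% of the counts and sums of 1557, 1903, 3624, 3336 and 2905 with vehicle and 1361, 782, 747, 819 and 1895 with GPI. Interstitial markers went both ways (1 rose and 2 fell of 5, Pdgfra with 44.7%), with sums between 12689 and 14986 with vehicle and between 12826 and 15689 with GPI, and 0 of 4 tested smooth muscle markers were called or had an unadjusted p under 0.05 (edgeR; Acta2 with 53.6%; sums of 1974 to 2413 and of 1491 to 2217). Epcam was called lower among the 2 tested of 6 mesonephric duct markers, of which Pax8 held 54.1% of the counts; their sums, 984, 187, 421, 221 and 114 with vehicle and 203, 323, 137, 117 and 119 with GPI, set the vehicle gonad of M1 apart from the rest. No marker but Myod1 was at 0 in all libraries.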

How the data were processed

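Whole gonads from paired cultures were sequenced (Ovation RNA-Seq System V2 and Celero libraries). The authors aligned reads to mm10 with STAR (2.5) and counted them with featureCounts (Subread 1.5.0-p1) on RefSeq Curated genes without regard to strand; the deposited values are raw counts per gene, used as deposited. The 0 other columns of sample values left nothing aside.

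Counts were filtered by filterByExpr (minimum count 10, minimum total 15; 10529 entries set aside) and TMM-scaled, and GPI was compared with vehicle by edgeR's quasi-likelihood test (edgeR 4.0.16, R 4.3.3) with embryo and treatment in the design and Benjamini-Hochberg adjustment over all 13941 genes at 0.05. A standard error was obtained from each log2 fold change and its F value (size of the change over the root of F). Normalized counts are counts over the effective library size times its mean. The pairing comes from the animal labels: both gonads of a number are from 1 embryo; deviations from treatment means correlated by -0.04 to 0.155 within embryos (mean 0.06) and by -0.015 on average between embryos. Without the block, 3108 genes were called in place of 3198. No 2 libraries of a group were copies (chi-square over degrees of freedom from 6.42 to 27.81 over 20 pairs).

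Shares and sums used the longest GENCODE M21 transcript of each gene and exact two-sided permutation tests (Python 3.11.15), the smallest possible p being 0.00794. Named by rule are the 8 genes, and every called gene and the first uncalled gene of each pathway list. The rule also covers the most abundant marker of each list and the 3 genes most correlated with each member. Outside the rule, Gbe1 was named for its values in M1. Pgm1 was named for its values in M1 too, though the rule also covers it as the first uncalled gene of its list. Further genes outside the rule include Ppp1r3e, Ppp1r3g, Gys2, Amh, Insl3 and Epcam. Members and lists were chosen with earlier results of these data known, and 2 genes were taken out of the lists after the values had been seen, for a reason other than their values. Counts are for the lists without them. The alternatives were DESeq2 (1.42.0), limma-voom (limma 3.58.1), no block, other scalings and filters, other lengths, sign flips within embryos and leaving out each embryo. The test was tried on simulated data first, the outcome of which is not given here. Precision was taken from the spread between embryos, since amplified reads are not independent molecules.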

Additional observations from a re-analysis of the deposited data

Results flagged for a closer look

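In each group of 5 libraries, the highest or lowest value was set against the others by Dixon's criterion (gap to the nearest value over the range, above 0.71), which chance passes in about 1 in 20 groups; 8 of 82 groups passed. The groups were the counts of the 8 genes and the other named glycogen genes, the shares, the 2 sums and the marker sums; genes named for their correlation with a member, such as Slc2a1 and Arrdc4, were not examined. This tally cannot be read against chance, since Pgm1 and Gbe1 were named for their values in M1 and the count and share of Pygl hold the same difference. With GPI, M1 stood above the other gonads in Pygl (657 normalized counts, others 235 to 336), in the share of Pygl among phosphorylases (40.6%, others 16.5% to 22.3%), in Gys1 (654, others 211 to 317), in Gbe1 (543, others 222 to 289) and in Pgm1 (533, others 76.1 to 154). With vehicle, M1 was highest in Ppp1cc (722, others 604 to 634). The other GPI gonads that stood apart were M2, lowest in Calm2 (3861, others 4058 to 4138), and M3, highest in the share of Phkg1 among gamma subunits (9.72%, others 0% to 2.80%), which rests on 8 raw counts.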

How the results depend on the processing

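Across the 12 alternatives, the number of genes called stayed within 1.5 times the reported 3198 (2311 to 3472); those called higher ranged from 969 to 1430 with 1 embryo left out. With total counts only, 1238 were called higher and 1972 lower, against 1544 and 1654. Of the 8 genes, 0 to 3 were called with 1 embryo left out, and of the other glycogen genes 4 to 7. Leaving out embryos gave log2 fold changes of -0.57 to -0.27 for Pygl, 0.31 to 0.44 for Phka1, 0.29 to 0.43 for Phkb, -0.03 to 0.03 for Phka2 and -0.27 to 0.19 for Phkg2. Pygl was called with DESeq2 (-0.40), total counts only (-0.44) and no low-count filter (-0.39); with total counts only Phka1 (0.33) was not, and Phka2 turned to -0.04. Pygb (0.04 to 0.20 with 1 embryo left out, lowest without M2) and Pygm (-0.62 without M2 to -0.17 without M4) stayed uncalled throughout. Phkg1 entered the test without the filter (log2 fold change -0.72; edgeR, adjusted p = 0.777).

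The difference in summed kinase level was 3.75 to 6.92 with 1 embryo left out (exact permutation, adjusted p 0.0571 to 0.114, where 4 against 4 cannot go below 0.0286 unadjusted), and 5.66 with the replicate block (sign flips), which cannot reach 0.05; that in summed phosphorylase level was -1.74 to 1.46, and -1.08 with total counts only. The 5 shares stayed uncalled, with coding length or no length too.

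Without the replicate block, 3108 genes were called; Gys1 turned to 0.03 and Gbe1 to 0.05, calls of Ppp1r3a and Ppp1r3c were lost and that of Gaa was gained, with no other call among the named glycogen genes changed. Gbe1 was 0.01 with limma-voom, and Pdxk 0.00 with total counts only. Leaving out embryos gave -0.28 to 0.01 for Gys1, -0.27 to 0.07 for Gbe1 and -0.16 to 0.15 for Pdxk. The cause of these shifts was not tested; leaving out an embryo also leaves fewer samples. The correlations with 1 embryo or the treatment means removed were chosen after the data were seen, and each moved by less than 0.1. Such small shifts are no separate check, since the genes were chosen for high correlation over the same libraries. Low counts limit Phkg1, Pygm and Phkg2 most.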
